A study of Mus musculus with 36 samples.

Results

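The expression of 7 endothelial adhesion genes was followed through mouse liver in every group of the study. They were the probe sets whose annotated gene symbol was Clca3a1, Selp, Jam2, Hpse, Icam1, Vcam1 or Pecam1, 8 of 41345 probe sets and 7 of 22180 genes. Clca3a1, Selp, Jam2 and Hpse were chosen because their values were higher in TB in these same data, so their TB minus WT differences are given as a description with no test. Icam1, Vcam1 and Pecam1 were added as vessel wall genes for comparison and were not chosen by their values.

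The study asked how a lung adenocarcinoma relates to daily gene expression in the distant liver. TB mice carried the alleles KrasLSL-G12D;p53fl/fl and had a lung adenocarcinoma, and WT mice were labelled as wild type, both C57BL/6 and kept under 12 h light and 12 h dark. Sampling was at Zeitgeber time (ZT, hours from lights on) 0, 4, 8, 12, 16 and 20, and each of the 12 combinations of genotype and ZT had 3 arrays, which makes 36. The sources used here give neither the trigger of recombination, nor the tumour load, nor the age and sex of the mice. The WT mice are not labelled as carrying the engineered alleles, so the tumour and the alleles cannot be told apart. Whether each array stands for a separate mouse is not labelled, and the p-values therefore reflect only how far these samples scatter, some of which may be technical.

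Leukocytes leave the blood in steps. Selectins of activated endothelium catch passing cells and let them roll, immunoglobulin-type molecules bind leukocyte integrins and hold them, and junction molecules take part in the passage between endothelial cells. Heparanase trims the heparan sulfate of the vessel surface and of the basement membrane. In the sinusoids of the liver, adhesion is known to depend less on selectins than it does in the venules of other tissues.

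The authors' values are linear probe set intensities, and differences are on the log2(intensity + 16) scale, which understates the change of dim genes. Array medians lay between 36.3 and 43.3 intensity units. Each array of whole liver holds many cell types, so that fewer cells of a type and less RNA per cell cannot be told apart. One array, WT ZT 12 replicate 3, held muscle transcripts, with all 13 measured muscle genes above their level in each of the other 35 arrays (Ttn, the titin gene, at 111500 against a median of 27.8, and Ckm, the creatine kinase of muscle, at 109600 against 56.5). The arrays also fell into a larger set of 24 and a smaller set of 12, with 1 array of the smaller set in each group. The sets were found from deviations from group means of probe sets without a symbol, and the labels do not name them. The component that parted them held 28.6% of the variance of these probe sets within groups. The chosen fit has no term for the set.

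Promoter sequences of 4 of the 7 genes (Clca3a1, Selp, Hpse and Icam1) were in the RefSeq table of GRCm38.p6, as 250 bases before to 50 bases after the start. Those of Clca3a1, Selp and Icam1 are printed, 5′ to 3′ on the strand of the gene, because Clca3a1 and Selp varied together among arrays whereas Icam1 varied with secreted proteins of hepatocytes, as described below. Once the array set was removed, these proteins were no longer among the closest 5 genes of Icam1. Clca3a1 then went slightly more with Hpse (0.74) than with Selp (0.71). Whether promoter letters relate to how the genes varied was not tested. Capitals mark matches, on either strand, to the letters CACGTG (E-box), TTCNNNGAA (STAT element), GGAAATTCC (a short NF-kappaB element), ACCGGAAG (ETS element) or a longer NF-kappaB element.
Clca3a1 (chr3:144760928-144761227, minus strand): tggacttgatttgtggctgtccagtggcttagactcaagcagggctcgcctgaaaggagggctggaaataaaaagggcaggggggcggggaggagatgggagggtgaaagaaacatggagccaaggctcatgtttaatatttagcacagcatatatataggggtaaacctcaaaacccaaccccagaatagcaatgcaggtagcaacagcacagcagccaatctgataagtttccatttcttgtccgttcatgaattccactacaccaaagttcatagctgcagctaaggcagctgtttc
Selp (chr1:164115014-164115313, plus strand): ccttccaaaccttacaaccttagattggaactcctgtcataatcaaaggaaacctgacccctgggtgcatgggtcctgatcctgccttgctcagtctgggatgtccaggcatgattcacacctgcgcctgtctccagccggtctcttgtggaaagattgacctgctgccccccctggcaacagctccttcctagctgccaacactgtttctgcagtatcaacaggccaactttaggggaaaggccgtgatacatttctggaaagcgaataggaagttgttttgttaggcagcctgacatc
Icam1 (chr9:21015690-21015989, plus strand): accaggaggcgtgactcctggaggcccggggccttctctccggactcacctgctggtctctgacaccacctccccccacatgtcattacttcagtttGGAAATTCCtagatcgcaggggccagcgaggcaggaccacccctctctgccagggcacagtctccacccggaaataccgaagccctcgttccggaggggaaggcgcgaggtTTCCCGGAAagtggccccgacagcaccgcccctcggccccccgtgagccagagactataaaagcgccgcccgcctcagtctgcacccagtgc
The Icam1 promoter held 1 STAT match, TTCCCGGAA, which began 42 bases before the start, and 1 NF-kappaB match, GGAAATTCC, which began 153 bases before it. Those of Clca3a1, Selp and Hpse held 0 matches to the 5 motifs in this window. Of 32851 promoters of the same length in the table, 8.3% held the STAT letters, 0.317% the short and 1.63% the longer NF-kappaB element, 7.15% the E-box and 2.3% the ETS letters. The Icam1 matches do not overlap each other. A match is a description of the letters, not evidence of binding.

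Averaged over the 6 times, TB livers stood above WT livers by 2.48-fold for Clca3a1, 1.53-fold for Selp, 1.46-fold for Jam2 and 1.42-fold for Hpse on this scale, which are the values that chose these genes. The vessel wall genes differed less, by 1.21-fold for Icam1, 1.06-fold for Vcam1 and 1.01-fold for Pecam1, and none of these 3 passed the test. No daily rhythm and no change of the TB minus WT difference over the day passed for any of the 7 genes in the chosen fit, whereas rhythms of Selp and Vcam1 did in others, as given below. In the larger array set alone, TB was above WT by 1.40 log2 for Clca3a1, 0.64 for Selp, 0.57 for Jam2 and 0.50 for Hpse, and in the smaller by 1.13, 0.55, 0.50 and 0.51.

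Clca3a1, a member of the CLCA family that in mouse lines lymphatic endothelium and binds leukocyte integrins, showed the largest TB minus WT difference of the 7 genes. Clca3a1 at ZT 0 read 202, 53.4 and 99.3 in TB livers, against 21.9, 60.4 and 40.2 in WT livers. Clca3a1 at ZT 4 was at 208, 62.9 and 88.1 in TB and at 53.6, 21.2 and 21.8 in WT. Clca3a1 at ZT 8 had intensities of 166, 25.2 and 157 in TB, against 50.4, 37.0 and 38.2 in WT. At ZT 8 a single TB array, replicate 2, lay below all WT arrays of that time, while the other TB arrays lay far above the highest of them. Clca3a1 at ZT 12 read 189, 195 and 242 in TB livers, against 71.0, 33.1 and 24.5 in WT livers. Clca3a1 at ZT 16 was at 60.4, 198 and 157 in TB and at 36.2, 32.5 and 37.5 in WT. Clca3a1 at ZT 20 had intensities of 110.1, 102 and 65.5 in TB, against 52.4, 36.4 and 34.3 in WT. From ZT 12 to ZT 20 every TB array lay above every WT array of its time. Over all times the TB arrays ran from 25.2 to 242.0 with a median of 134, against 21.2 to 71.0 with a median of 36.7 in WT. Of 18 TB arrays 13 exceeded the highest of the 18 WT arrays. The mean difference over the 6 times was 1.31 ± 0.186 log2 (SE, n = 18 per genotype), 2.48-fold on this scale.

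Selp encodes P-selectin, which endothelial cells keep in Weibel-Palade bodies and platelets in their granules, and which binds PSGL-1 on leukocytes. Selp at ZT 0 read 109, 25.7 and 25.4 in TB livers, against 30.9, 29.2 and 16.7 in WT livers. Selp at ZT 4 was at 68.5, 26.4 and 31.8 in TB and at 28.6, 23.2 and 35.0 in WT. Selp at ZT 8 had intensities of 113, 41.2 and 85.9 in TB, against 35.3, 27.6 and 19.4 in WT. At ZT 0 and ZT 4 replicate 1 alone separated TB from WT, and the other TB arrays lay among the WT values. Selp at ZT 12 read 78.7, 43.1 and 65.4 in TB livers, against 25.2, 28.1 and 26.3 in WT livers. Selp at ZT 16 was at 32.0, 68.5 and 41.2 in TB and at 30.0, 24.6 and 27.7 in WT. Selp at ZT 20 had intensities of 34.5, 41.1 and 22.5 in TB, against 22.9, 21.0 and 19.9 in WT. The groups were apart at ZT 8, ZT 12 and ZT 16 and overlapped at ZT 20. WT arrays stayed between 16.7 and 35.3, below the median of every array, so the low end of Selp was measured where signals are dim. TB arrays ran from 22.5 to 113 with a median of 41.2, against a median of 26.9 in WT, a mean difference of 0.61 ± 0.128 log2 (SE, n = 18 per genotype).

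Jam2, the junctional adhesion molecule JAM-B of endothelial tight junctions, was higher in TB without overlap at ZT 8, ZT 16 and ZT 20. Jam2 at ZT 0 read 190.1, 138 and 102 in TB livers, against 120.2, 157 and 113 in WT livers. Jam2 at ZT 4 was at 168, 96.7 and 111 in TB and at 83.8, 118 and 101 in WT. Jam2 at ZT 8 had intensities of 246, 143 and 178 in TB, against 114, 65.1 and 77.4 in WT. The groups overlapped at ZT 0 and ZT 4 and were apart at ZT 8. Jam2 at ZT 12 read 204, 124 and 193 in TB livers, against 111, 82.8 and 168 in WT livers. Jam2 at ZT 16 was at 139, 181 and 146 in TB and at 84.5, 94.5 and 83.0 in WT. Jam2 at ZT 20 had intensities of 171, 141 and 132 in TB, against 103, 102 and 61.0 in WT. The WT array with muscle transcripts held the highest Jam2 value of all WT arrays, 168 at ZT 12, and the other WT arrays of that time lay below all TB arrays. The mean difference was 0.54 ± 0.098 log2 (SE, n = 18 per genotype), and 0.58 without that array. It was smallest at ZT 0 (0.10) and largest at ZT 8 (1.01).

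Hpse, heparanase, differed by a similar amount at each time. Hpse at ZT 0 read 129, 120.4 and 124 in TB livers, against 66.4, 85.2 and 77.6 in WT livers. Hpse at ZT 4 was at 184, 82.5 and 93.4 in TB and at 102, 69.0 and 73.0 in WT. Hpse at ZT 8 had intensities of 139, 93.0 and 148 in TB, against 89.6, 89.2 and 85.2 in WT. TB and WT overlapped at ZT 4, where replicate 1 of TB stood at 184 and the other TB arrays lay within the range of WT. Hpse at ZT 12 read 122, 127 and 144 in TB livers, against 90.7, 83.7 and 62.5 in WT livers. Hpse at ZT 16 was at 107, 116 and 112 in TB and at 99.8, 71.5 and 84.4 in WT. Hpse at ZT 20 had intensities of 96.8, 135 and 123 in TB, against 90.0, 88.3 and 49.2 in WT. All TB values exceeded all WT values at 5 of the 6 times, and 14 of 18 TB arrays lay above the highest WT array. The mean difference was 0.50 ± 0.082 log2 (SE, n = 18 per genotype), between 0.34 and 0.64 over the times. A second probe set of Hpse ran from 17.5 to 30.8 in TB with a median of 23.1, against 9.69 to 23.7 in WT with a median of 19.6, and differed by 0.18 log2, positive at 6 of 6 times. Both probe sets were higher in TB, by different amounts on this scale.

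**Figure D1:**
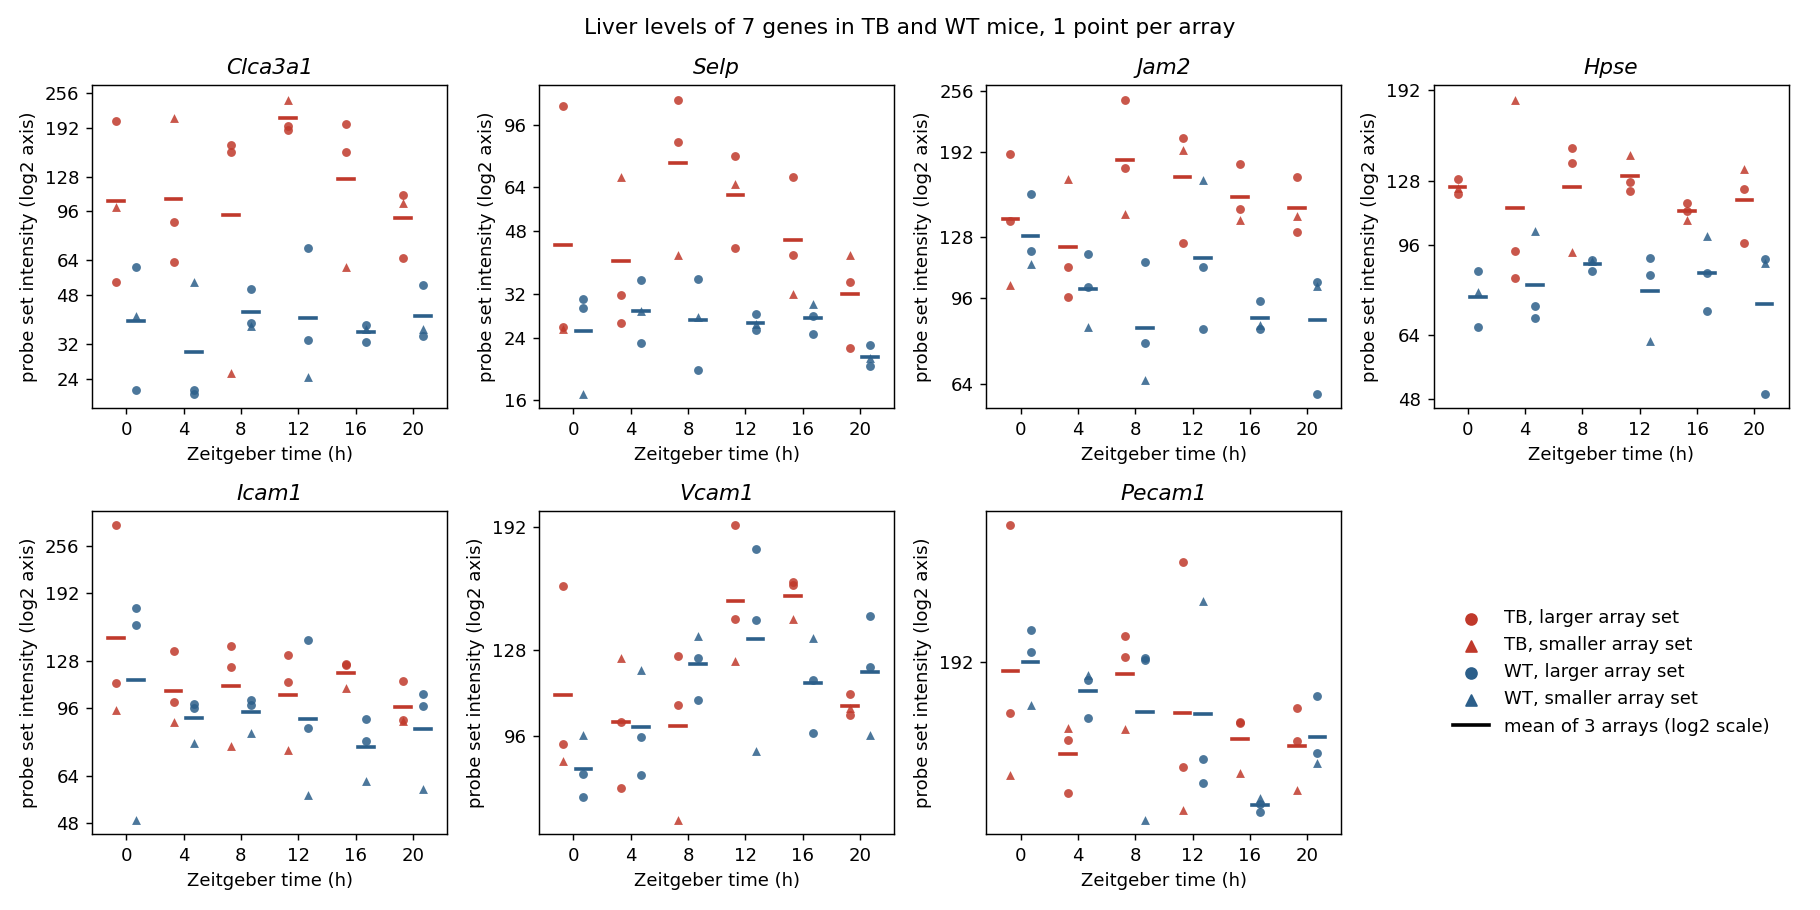
Probe set intensity (log2 axis) of the 7 genes by Zeitgeber time in hours, 1 point per array, with TB in red to the left of WT in blue, triangles for the smaller array set and bars for the mean of 3 arrays on the log2 scale. The bars of TB lie above those of WT at all 6 times for Clca3a1, Selp, Jam2 and Hpse, which were chosen for higher values in TB, and for Icam1. All TB points lie above all WT points at 5 times for Hpse, 4 for Clca3a1 and 3 each for Selp and Jam2. Icam1, Vcam1 and Pecam1 overlap at most times.

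Icam1 is the endothelial ligand of the leukocyte integrins LFA-1 and Mac-1, and hepatocytes can make it as well. Icam1 at ZT 0 read 289, 112 and 95.2 in TB livers, against 159, 175 and 49.1 in WT livers. Icam1 at ZT 4 was at 88.6, 99.9 and 136 in TB and at 78.1, 96.0 and 98.7 in WT. Icam1 at ZT 8 had intensities of 139.5, 76.5 and 123 in TB, against 101, 82.9 and 97.8 in WT. The spread within groups was wide, and TB ZT 0 replicate 1 held the highest Icam1 value of all 36 arrays. Icam1 at ZT 12 read 132, 112 and 74.7 in TB livers, against 145, 85.4 and 57.1 in WT livers. Icam1 at ZT 16 was at 108, 125 and 125 in TB and at 61.9, 78.8 and 90.1 in WT. Icam1 at ZT 20 had intensities of 113, 88.8 and 89.3 in TB, against 105, 58.9 and 97.3 in WT. Only at ZT 16 were all TB arrays above all WT arrays. The mean difference was 0.27 ± 0.136 log2 (SE, n = 18 per genotype), positive at 6 of 6 times, and did not pass over all genes (limma adjusted p = 0.465). It was 0.21 in the larger array set and 0.38 in the smaller. Icam1 was also lower in the smaller array set than in the larger by 0.55 log2 (−0.55, deviations from group means), more than for any of the other 6 genes, for which this shift lay between −0.14 and 0.13.

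Vcam1, the ligand of the integrin VLA-4, is made by endothelium and by Kupffer cells. Vcam1 at ZT 0 read 158, 93.7 and 88.5 in TB livers, against 84.7, 78.5 and 96.3 in WT livers. Vcam1 at ZT 4 was at 125, 81.0 and 101 in TB and at 119.6, 95.8 and 84.3 in WT. Vcam1 at ZT 8 had intensities of 107, 72.9 and 125 in TB, against 108, 134 and 125 in WT. The sign of the difference changed among these times, with a negative one at ZT 8 where the groups overlapped. Vcam1 at ZT 12 read 193, 142 and 123 in TB livers, against 141, 179 and 91.3 in WT livers. Vcam1 at ZT 16 was at 142, 158 and 160.0 in TB and at 133, 97.1 and 116 in WT. Vcam1 at ZT 20 had intensities of 103, 106 and 110.4 in TB, against 121, 96.6 and 143 in WT. ZT 16 was again the 1 time at which every TB array exceeded every WT array. The mean difference was 0.08 ± 0.083 log2 (SE, n = 18 per genotype, limma adjusted p = 0.779), with 0.14 in the larger array set and −0.04 in the smaller. It was positive at 4 of 6 times.

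Pecam1, the platelet and endothelial adhesion molecule at the borders of endothelial cells, had the smallest spread of the 7 genes. Pecam1 at ZT 0 read 243, 176 and 158 in TB livers, against 195, 203 and 178 in WT livers. Pecam1 at ZT 4 was at 171, 168 and 153 in TB and at 188, 186 and 174 in WT. Pecam1 at ZT 8 had intensities of 200.5, 171 and 193 in TB, against 192, 146 and 193 in WT. At ZT 4 every TB array lay below every WT array, as for 4.58% of all genes. Pecam1 at ZT 12 read 228, 160.1 and 149 in TB livers, against 156, 162 and 213 in WT livers. Pecam1 at ZT 16 was at 159, 173 and 173 in TB and at 152, 148 and 150.3 in WT. Pecam1 at ZT 20 had intensities of 177, 154 and 168 in TB, against 164, 161 and 181 in WT. At ZT 16 the order was the opposite, and each group lay within a narrow range. TB arrays ran from 149 to 243 with a median of 171, against 146 to 213 with a median of 176 in WT. The mean difference was 0.01 ± 0.056 log2 (SE, n = 18 per genotype, limma adjusted p = 0.973), with 0.06 in the larger array set and −0.09 in the smaller.

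Counts over all genes were made for comparison. The TB minus WT difference was positive at all 6 times for Clca3a1, Selp, Jam2, Hpse and Icam1, where it was for 4.06% of all genes. All 3 TB arrays lay above all 3 WT arrays at 5 times for Hpse, at 4 for Clca3a1 and at 3 for Selp and Jam2. Of all 22180 genes 0.591% had 3 or more such times, 0.0586% had 4 or more and 0.00902% had 5 or more. Since these 4 genes were chosen on the same contrast, nothing is read from this. Icam1, Vcam1 and Pecam1 had 1 such time each, and it was ZT 16 for all of them. At ZT 16 all 7 genes were without overlap and higher in TB, where 7.98% of all genes were, the highest share of the 6 times. At ZT 0 this held for 1 of the 7 (Hpse, against 4.27% of all genes) and at ZT 4 for 1 (Clca3a1, against 4.8%). At ZT 8, 12 and 20 it held for 3 of the 7 each, against 3.54%, 6.79% and 3.26% of all genes. The 7 genes vary together among arrays, so they are not independent in such a count.

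The 12 group means of each gene were placed in order. For Clca3a1, Selp and Hpse the 6 TB groups took the 6 highest places, and for Jam2 they took 5 of them. These genes were chosen for higher values in TB, so this order and their steps from TB to WT groups restate that choice. How many of all genes show such an order was not counted, and nothing is read from it. Clca3a1 was highest in TB at ZT 12 (7.80 ± 0.18 log2, SD, n = 3), followed by TB at ZT 16 (7.14 ± 0.79). The lowest TB group was ZT 20 (6.74 ± 0.34), against 5.85 ± 0.18 in WT at ZT 8, the highest WT group. These 2 steps, of 0.66 and 0.89, were the only ones between neighbours that exceeded the pooled SD of Clca3a1 within groups, 0.61. For Hpse 1 step exceeded the pooled SD of 0.26, the step of 0.29 between the lowest TB group (ZT 16, 6.99 ± 0.05) and the highest WT group (ZT 8, 6.70 ± 0.03). For Selp, Jam2, Icam1, Vcam1 and Pecam1 no neighbours in the order were further apart than the pooled SD within groups, which lay between 0.16 for Pecam1 and 0.44 for Icam1. Selp was highest in TB at ZT 8 (6.51 ± 0.61) and lowest in WT at ZT 20 (5.22 ± 0.06). Vcam1 was highest in TB at ZT 16 (7.40 ± 0.09) and TB at ZT 12 (7.38 ± 0.30), followed by WT at ZT 12 (7.22 ± 0.44). For this gene only 2 of the 6 highest groups were TB.

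Whether the TB minus WT difference changed with time of day was tested by an F test of the 6 differences, which does not use their mean. None of the 7 genes passed (limma adjusted p = 1 for each), and neither did any of the 22180 genes (0%), of which 550 had an unadjusted p under 0.05 in limma, the only tool run. Jam2 had the lowest unadjusted p of the 7, 0.121, with differences of 0.10, 0.25, 1.01, 0.50, 0.72 and 0.67 log2 from ZT 0 to ZT 20 (SE 0.24 each). Those of Clca3a1 were 1.14, 1.41, 0.92, 2.00, 1.46 and 0.92 (SE 0.46 each), and those of Selp 0.55, 0.31, 1.08, 0.86, 0.50 and 0.37 (SE 0.31 each).

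**Figure D2:**
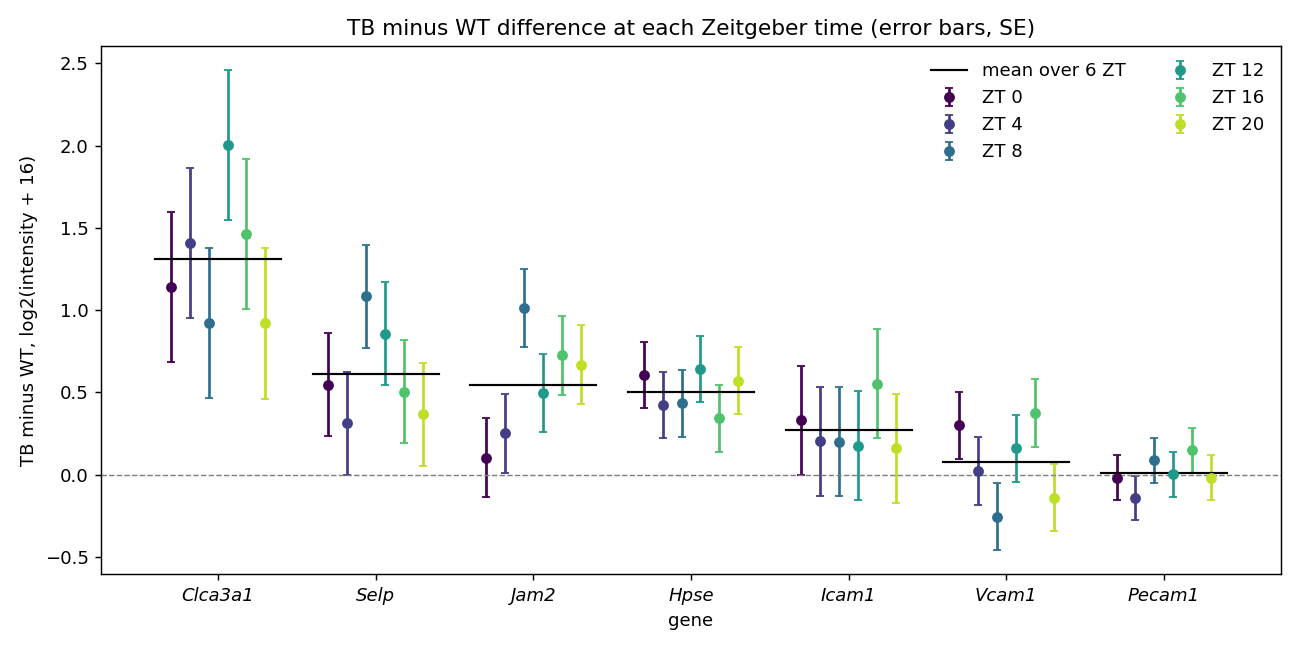
TB minus WT difference in log2(intensity + 16) of the 7 genes at each Zeitgeber time, with SE as error bars and a black line at the mean over the 6 times. All 6 points of Clca3a1, Selp, Jam2, Hpse and Icam1 lie above 0, whereas those of Vcam1 and Pecam1 fall on both sides.

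Time of day within a genotype was not used to choose the genes and was tested with a cosine of 24 h. In TB 0 of the 7 genes passed, where 4.95% of all genes did, and in WT 0 of 7, where 6.45% did. At an unadjusted p under 0.05 in limma these counts were 2 in TB (Selp and Vcam1) and 1 in WT (Vcam1). Of all 22180 genes 3723 in TB and 3726 in WT were under that limit. Selp had a fitted amplitude of 0.37 log2 in TB with a peak at ZT 9.54 (limma adjusted p = 0.161), against an amplitude of 0.08 in WT (adjusted p = 0.950). Vcam1 peaked in the dark phase in TB at ZT 14.7 with an amplitude of 0.27 (adjusted p = 0.118) and at ZT 12.8 in WT with an amplitude of 0.22 (adjusted p = 0.274). These calls depended on 1 array and on the weight given to arrays. Without TB ZT 0 replicate 1 both passed in TB, Selp with an amplitude of 0.52 and an adjusted p of 0.00256 and Vcam1 with an amplitude of 0.34 and an adjusted p of 0.0186 (limma). With array weights and all 36 arrays Selp (adjusted p = 0.0319) and Vcam1 (0.00793) also passed in TB, and Vcam1 passed in WT (0.0375). More of all genes passed under these changes too. In TB they numbered 1099 in the chosen fit, 1502 without TB ZT 0 replicate 1 and 1922 with array weights. In WT they numbered 1430 in the chosen fit and 2251 with array weights. The amplitudes of Clca3a1 were 0.34 in TB and 0.05 in WT (adjusted p = 0.566 and 0.991), and those of Hpse 0.04 and 0.07 (adjusted p = 0.966 and 0.907). No difference in rhythm between TB and WT passed for any of the 7 genes or for any gene (0%, with 1064 of 22180 at an unadjusted p under 0.05). For Selp this test had an adjusted p of 0.985 (limma), and 0.822 without TB ZT 0 replicate 1.

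The spread among TB arrays of 1 group differed between the genes. Within groups Selp had an SD of 0.56 log2 in TB and 0.18 in WT, a ratio of 3.02 that was above 99.8% of all genes, whose median ratio was 0.988. For Clca3a1 the SDs were 0.77 and 0.40 (ratio 1.93, above 96.9% of genes). For Jam2, Hpse, Icam1, Vcam1 and Pecam1 the ratio lay between 0.889 and 1.37. Both are dim in WT, with medians of 36.7 and 26.9, where adding 16 before the logarithm narrows spreads. Single TB arrays stood high for several genes at once. TB ZT 0 replicate 1 was among the 6 highest of the 18 TB arrays for all 7 genes, and TB ZT 12 replicate 1 for 6 of them. TB ZT 4 replicate 2, by contrast, was among the 6 lowest for 5 of the 7, and TB ZT 4 replicate 3 for 6.

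How the genes varied together was described with deviations from the 12 group means, which hold neither genotype nor time. Clca3a1 and Selp had the highest Pearson correlation of the 21 pairs, r = 0.72 (Spearman 0.59, 36 arrays), followed by Clca3a1 with Hpse at 0.66 (0.69) and Selp with Jam2 at 0.65 (0.65). Removing the array set as well gave 0.71, 0.74 and 0.65. Pecam1 went most with Jam2 (0.58) and Selp (0.53) and not with Hpse (−0.10). Vcam1 and Jam2 did not vary together (−0.03). The 6 pairs among Clca3a1, Selp, Jam2 and Hpse had a median of 0.55, against 0.40 for the 3 pairs among Icam1, Vcam1 and Pecam1. Without the array with muscle transcripts these medians were 0.61 and 0.60. The points share their arrays and RNA preparations, so these values describe the libraries and carry no test.

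**Figure D3:**
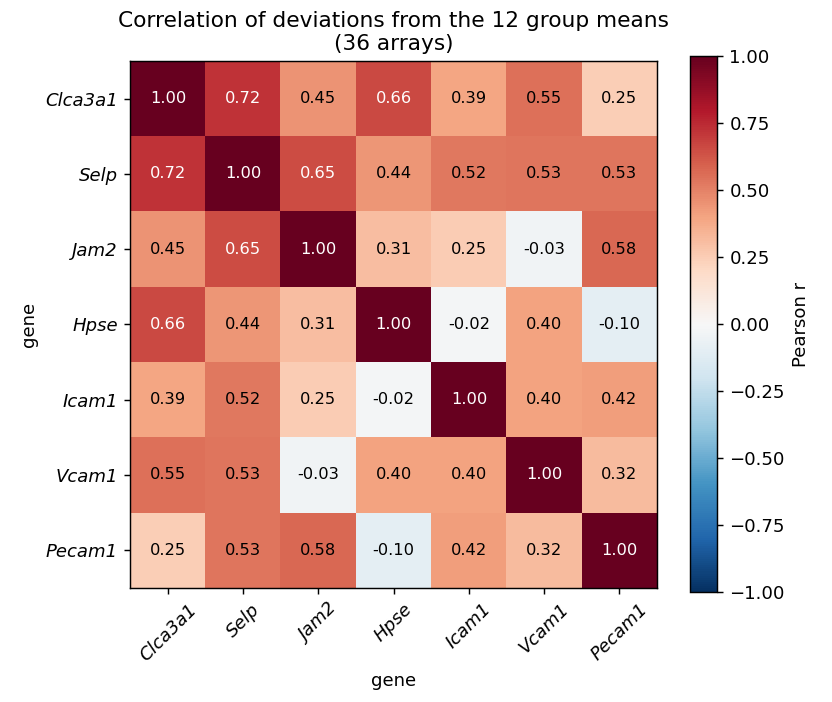
Pearson correlation between the 7 genes of their deviations from the 12 group means over 36 arrays, from −1 (blue) to 1 (red). Clca3a1 and Selp show the highest value between 2 genes, 0.72, and Hpse with Pecam1 the lowest, −0.10.

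The genes most like each of the 7 were taken from all genes by the same measure. For Selp these were Osmr, the receptor subunit for oncostatin M (r = 0.89), the sugar phosphate mutase Pgm2 (0.79), the glycosyltransferase B3gnt3 (0.77), the netrin Ntn4 (0.76) and Adam23 (0.76). For Clca3a1 they were Ankrd55 (0.83), Adam23 (0.79), the interleukin 4 receptor chain Il4ra (0.79), the matrix protein Tgfbi (0.79) and Osmr (0.77). Hpse went with the C-type lectin Clec4n (0.75), Il4ra (0.73), the hepatocyte growth factor gene Hgf (0.71), Stxbp2 (0.70) and Hhip (0.70). Jam2 had no gene above 0.71, with Trak2 (0.71), Plcb4 (0.71), Mbnl2 (0.67), Mustn1 (0.67) and the pericyte marker Rgs5 (0.66), and 0 of these 5 were among its closest without the array with muscle transcripts. Pecam1 was closest to the phosphodiesterase Pde7b (0.87), Mbnl2 (0.81), the basement membrane protein Nid1 (0.81), Ogdh (0.80) and Retreg1 (0.79). Vcam1 was closest to the cytokine receptor chain Csf2rb2 (0.78), Dqx1 (0.73), Abhd2 (0.72), Igh-VS107 (0.71) and the parathyroid hormone receptor Pth1r (0.71).

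Icam1 stood apart in this respect. Its closest genes were the heme-binding plasma protein hemopexin, Hpx (r = 0.92), the kininogen Kng2 (0.91), the GDNF receptor Gfra1 (0.91), the raft protein Flot1 (0.91) and the plasmin inhibitor Serpinf2 (0.90), of which Hpx, Kng2 and Serpinf2 are secreted by hepatocytes. Once the array set was removed too, only Flot1 was still among its closest 5 genes, while all 5 remained without the array with muscle transcripts. For Clca3a1 4 of 5 remained under each of these changes, and for Selp 3 of 5.

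Other genes of the adhesion cascade were read from lists. Averaged over the times, 26 genes of all 22180 were higher in TB (0.117%) and 13 lower (0.0586%), against 19 higher of 41 called when arrays were centred on their medians. In the chosen setting the median difference of all genes was 0.01 log2, and 53.9% of them had a positive one. Clca3a1, Selp, Jam2 and Hpse are left out of the list counts of TB minus WT differences that follow, since they were chosen on this contrast. Icam1, Vcam1 and Pecam1 stay in the lists that hold them. They are all in the immunoglobulin list, Icam1 and Vcam1 are also NF-kappaB targets, and Pecam1 is also a pan-endothelial marker. Of the other 11 selectins, ligands and enzymes of their sugars 0 passed in either direction, 7 were positive and the median was 0.07 log2. Sele, the E-selectin of inflamed endothelium, differed by 0.00 ± 0.058 log2 (SE, n = 18 per genotype), and Selplg, which encodes PSGL-1, by 0.07 ± 0.065. Madcam1 had the smallest p of them, at 0.20 ± 0.061 (limma adjusted p = 0.184). Of 14 immunoglobulin adhesion and junction genes beside Jam2, 0 passed, 7 were positive and the median was 0.00. Jam3, the binding partner of Jam2, differed by 0.03 ± 0.050, and the vascular cadherin Cdh5 by −0.03 ± 0.063.

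For leukocyte integrins 0 of 10 measured genes passed, with a median of 0.05 log2. The largest difference was that of Itgb3, the beta chain of the fibrinogen receptor of platelets, at 0.45 ± 0.112 (SE, n = 18 per genotype, limma adjusted p = 0.0890). The chains of LFA-1 differed by 0.14 ± 0.077 (Itgal) and 0.12 ± 0.077 (Itgb2). Of 18 genes of heparan sulfate beside Hpse 0 passed, 8 were positive and the median was −0.01. The perlecan gene Hspg2 differed by −0.10 ± 0.052 and the sulfatase Sulf1 by −0.13 ± 0.085. Of the 7 other measured CLCA genes 0 passed, 4 were positive and the median was 0.02. The close copy Clca3a2 averaged 5.45 log2 in TB and 5.51 in WT, a difference of −0.06 ± 0.093, and how far its probes share sequence with those of Clca3a1 is not known here.

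Of 15 targets of NF-kappaB in inflamed endothelium 0 passed, with 14 positive differences, a median of 0.06 log2 and a range of −0.01 to 0.50. Cxcl1, a neutrophil chemokine, had the largest, 0.50 ± 0.319 (SE, n = 18 per genotype, limma adjusted p = 0.591), and Nfkbia, the inhibitor induced by the pathway, differed by 0.06 ± 0.066. Receptors for cytokines that act on endothelium had a median of 0.22 log2, with 10 of 11 positive. Among them 1 was higher in TB and 0 lower, Il6st, the signalling chain common to interleukin 6-type receptors, at 0.36 ± 0.065 (adjusted p = 0.0168). Osmr differed by 0.54 ± 0.120 (adjusted p = 0.0537) and Il1r1, the interleukin 1 receptor, by 0.63 ± 0.174 (adjusted p = 0.138). These receptors are also made by hepatocytes.

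Daily rhythm in these lists was seen in 4 of 15 immunoglobulin and junction genes in WT, against 6.45% of all genes. They were Ocln of tight junctions (amplitude 0.48 log2, limma adjusted p = 0.00124), Jam3 (0.19, 0.0228), Cdh5 (0.24, 0.0296) and Cd99l2 (0.19, 0.0367). In TB 0 of the 15 passed, with amplitudes of 0.28, 0.15, 0.13 and 0.08 for the same genes. No rhythm difference between TB and WT was called in the list. Of 15 sinusoidal endothelial markers 4 passed in WT and 2 in TB, against 6.45% and 4.95% of all genes. Clec4g passed in WT (amplitude 0.34, limma adjusted p = 0.00646), against an amplitude of 0.06 in TB that did not pass. Dnase1l3 and Stab2 also passed in WT only. Rspo3 passed in TB only (amplitude 0.21, against 0.17 in WT), and Gata4 in both (0.22 in TB and 0.25 in WT). No rhythm difference was called among these markers either. Of the 12 measured genes of the selectin list 1 passed in TB, C1galt1, an enzyme of O-glycan synthesis (amplitude 0.24, limma adjusted p = 0.0463), and 0 in WT. Of 11 cytokine receptors 3 passed in TB and 4 in WT. Of 20 pan-endothelial markers 2 passed in WT and 0 in TB, and of 15 NF-kappaB targets 2 in WT and 1 in TB. Of 19 heparan sulfate genes 1 passed in each genotype, and of 7 lymphatic markers 1 in WT and 0 in TB. For the integrin, CLCA, platelet, leukocyte, Kupffer cell and stellate cell lists 0 passed in either genotype. The shares of all genes were again 4.95% in TB and 6.45% in WT.

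Markers of the cells that could carry these transcripts were set beside the 7 genes, of which Pecam1 is itself a pan-endothelial marker. Of 20 pan-endothelial markers 0 passed in either direction, 7 differences were positive, the median was −0.03 log2 and the range −0.13 to 0.21, with Vwf, which fills Weibel-Palade bodies, at the top (0.21 ± 0.070, SE, n = 18 per genotype, limma adjusted p = 0.237). Their summed intensity ran from 2353 to 3562 in TB with a median of 2961, against 2538 to 3427 in WT with a median of 3031. Of 15 sinusoidal endothelial markers 0 passed, with 9 positive, a median of 0.04 and sums of 3503 to 4837 in TB and 3253 to 4619 in WT. Among them Clec4g, a C-type lectin of sinusoidal cells, differed by 0.21 ± 0.074 and the hyaluronan receptor Lyve1 by −0.22 ± 0.125. Lymphatic markers were called in 0 of 7 cases, with a median of −0.02 and sums of 1068 to 1592 in TB and 1119 to 1537 in WT. The brightest of them, Prox1, had a median of 602 in TB and 538 in WT, and Lyve1 is in the sinusoidal list too. Whether this sum follows the amount of lymphatic vessels was not tested.

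Platelet markers, of which 0 of 9 passed, had a median of 0.07 log2 with 6 positive, and sums of 413 to 586 in TB with a median of 473, against 379 to 496 in WT with a median of 444. Clec1b had the largest difference, 0.27 ± 0.101 (SE, n = 18 per genotype, limma adjusted p = 0.284). It was also the brightest of the 9, with a median of 150 in TB and 128 in WT, so the sums lean on it. Of 12 leukocyte markers 0 passed, with a median of −0.01 and sums of 552 to 805 in TB and 570 to 858 in WT. Kupffer cell markers, 0 of 8 passed, had 7 positive differences with a median of 0.11, sums of 1051 to 2475 in TB and 760 to 2385 in WT, and Marco at 0.69 ± 0.227 (adjusted p = 0.220). In the stellate cell and fibroblast list 0 of 11 passed, with a median of 0.02 and sums of 2541 to 4370 in TB and 2311 to 6477 in WT, where Hgf differed by 0.33 ± 0.083 (adjusted p = 0.107). Des of this list reached 2355 in WT, against a WT median of 51.2 and a highest TB value of 76.7. Its difference was largest at ZT 12 (−1.63 log2), the time of the WT array with muscle transcripts, so the top of the WT sums leans on it. No marker of these 7 cell type lists averaged under 16 intensity units over the 36 arrays. The part of any of these cells in the values of the 7 genes was not tested.

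**Figure D4:**
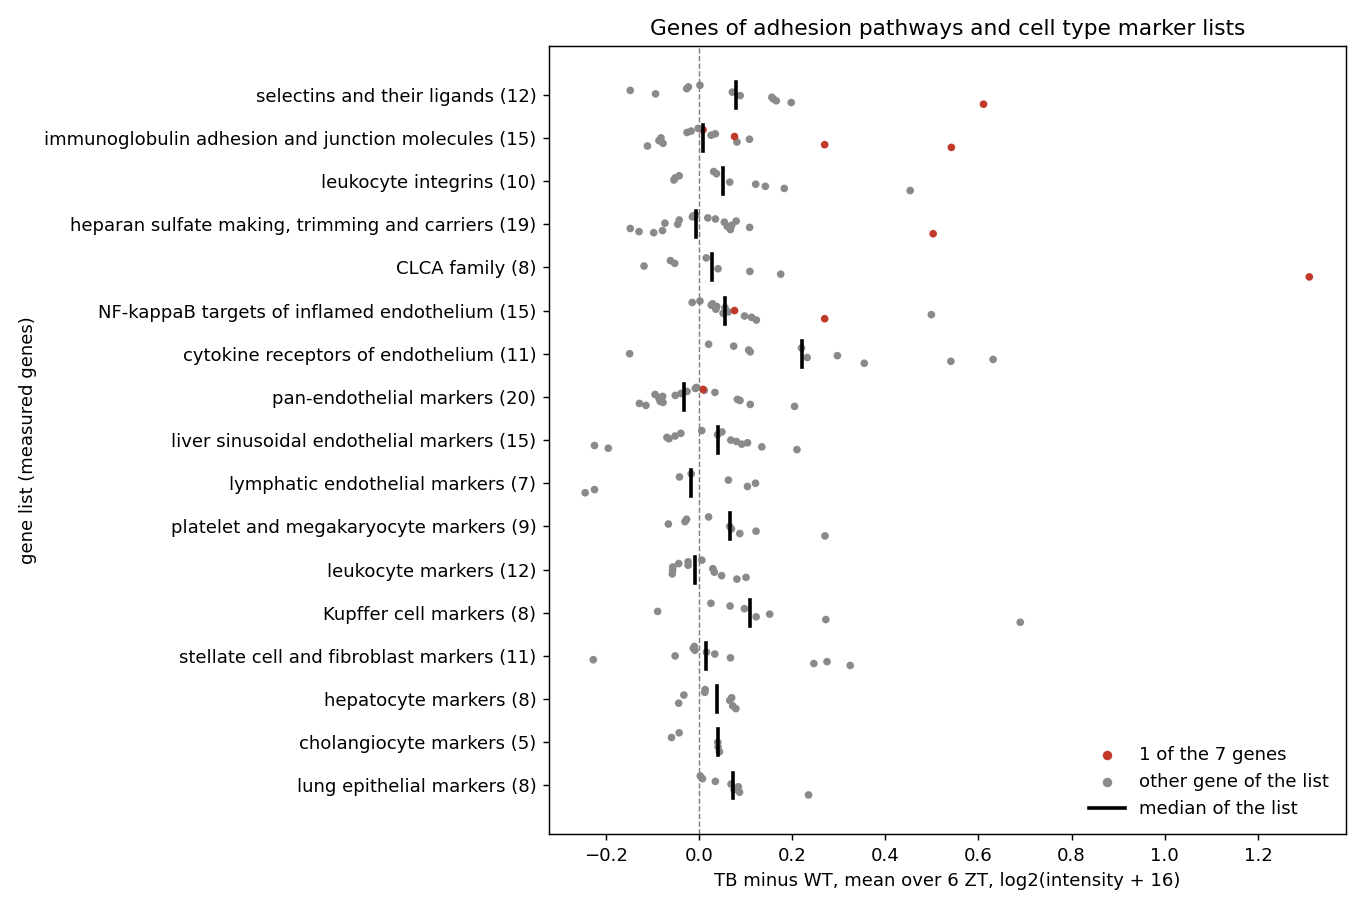
TB minus WT difference averaged over the 6 times, in log2(intensity + 16), for the genes of adhesion lists and cell type marker lists, with 1 point per gene, the 7 genes in red and a black bar at the median of each list. Clca3a1, Selp, Jam2 and Hpse, which were chosen for higher values in TB, lie to the right of the other genes of their lists. The endothelial marker lists centre near 0.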

How the data were processed

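Liver RNA was measured on 36 one-colour Affymetrix arrays in 12 groups of 3. The deposited table holds linear intensity values of 41345 probe sets. Expression Console 1.1.1 and PLIER 2.0 were used per the submitters' processing notes, but how arrays were normalized is not given in the sources used here. The number of arrays limits the precision. Probe sets with 1 symbol in the platform annotation (23521, of which 23328 matched the RefSeq table of GRCm38.p6) were kept, 1814 had several symbols and 16010 none, and the probe set with the highest mean stood for a gene. Values were turned into log2(value + 16) with no filter.

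The 22180 genes were fitted with limma 3.58.1 in R 4.3.3 (lmFit, eBayes) on 12 group means, and on a mean, cosine and sine of 24 h per genotype for rhythms. Benjamini-Hochberg adjustment ran across every gene (threshold 0.05), and the fit was tested on simulated data. The members, the 19 lists (225 symbols, 212 measured) and the tests were chosen with earlier results of these data known. Named are the 7 genes, genes of the CLCA, selectin and immunoglobulin lists that passed, up to 4 genes per other list by smallest p, and the 5 genes most correlated with each of the 7 (predicted genes left out). Sele, Selplg, Madcam1, Clca3a2, Nfkbia, Cxcl1, Scgb1a1 and the sinusoidal markers Dnase1l3, Stab2, Rspo3 and Gata4 are named after their values were seen. Samples with the same replicate number were not taken as pairs, since no label ties the numbers to a batch. The arrays do show likeness by number. Of 18 TB and WT pairs of a time with the same number, 14 had correlated deviations over 0.1 (r from −0.05 to 0.41). The array of the smaller set also carried the same number in TB and WT at all 6 times. The chosen fit has no term for this likeness, and its source was not tested. Alternatives are given in the closing section.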

Additional observations from a re-analysis of the deposited data

Results flagged for a closer look

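Pecam1 differed in opposite directions at 2 times of day. All 3 TB arrays lay below all 3 WT arrays at ZT 4 (−0.14 log2) and above them at ZT 16 (0.15 log2). The test of a dependence on time had an unadjusted p of 0.746 and an adjusted p of 1 (limma). Among all genes 4.58% had TB below WT without overlap at ZT 4, and 7.98% had TB above WT without overlap at ZT 16.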

How the results depend on the processing

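The TB minus WT differences of Clca3a1, Selp, Jam2 and Hpse kept their sign under all 13 other settings and with each of the 36 arrays left out, between 1.13 and 1.60 log2 for Clca3a1, 0.52 and 0.83 for Selp, 0.50 and 0.61 for Jam2, and 0.34 (mean of the probe sets) and 0.58 for Hpse. These genes were chosen on this contrast in the same arrays, so the kept sign is a description and no separate support. Icam1 stayed between 0.19 and 0.38 and never passed (limma adjusted p from 0.168 to 0.632). Vcam1 turned to −0.04 in the smaller array set. Pecam1 turned to −0.0157 under median centring and −0.0928 in the smaller array set, and ranged from −0.0195 to 0.0308 with single arrays left out. Genes called for the TB minus WT difference, 39 in the chosen setting, numbered 15 with a pseudocount of 1, 59 with a replicate block within each ZT, 151 with the array set as a block, 1151 in the larger set, 0 in the smaller set and 626 with array weights, and 11 to 109 with single arrays left out (11 without TB ZT 20 replicate 2, 109 without TB ZT 8 replicate 2). The time dependence called 1 gene with the replicate block within each ZT, 2 with array weights and 0 to 3 with single arrays left out, and the rhythm difference 0 to 1. Rhythms in TB, 1099 genes in the chosen setting, numbered 1660 with the array set block, 19 in the smaller set, 1922 with array weights, 482 with 6 time levels and 759 to 1502 with single arrays left out. Those in WT, 1430, numbered 16 in the smaller set, 2251 with array weights, 597 with 6 time levels and 1115 to 1543 with single arrays left out. Array weights also called Selp (adjusted p = 0.0319) and Vcam1 (0.00793) rhythmic in TB and Vcam1 in WT (0.0375), and with 6 time levels Selp had 0.592 and Vcam1 0.345 in TB. A block of the replicate number called 38 genes for the TB minus WT difference, and the blocks called none of the 7 genes in the tests of time. In the pairing check 12 of 18 TB arrays correlated best with the WT array of their own number. The smaller set has 1 array per group, so the time dependence was not run there, and rhythms within a genotype were not run with the block within each ZT. The cause of these changes was not tested.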

Other observations

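The clock genes served as a check of the time labels. Of 17 measured core clock genes 14 were rhythmic in TB, against 4.95% of all genes, and 16 in WT, against 6.45%. Dbp, an output regulator of the clock, had amplitudes of 2.25 log2 in TB and 2.34 in WT (limma adjusted p = 6.8e-15 and 3.8e-15), and 0 of the 17 passed for the mean TB minus WT difference.

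Other cell types were read from their markers. Of 8 hepatocyte markers 0 passed for TB minus WT, with a median of 0.04 log2 and sums of 47710 to 52730 in TB and 46620 to 53310 in WT. Of 5 cholangiocyte markers 0 passed (median 0.04, sums of 189 to 441 in TB and 213 to 532 in WT). Of 8 lung epithelial markers 0 passed, all 8 differences were positive (median 0.07, sums of 402 to 527 in TB and 389 to 467 in WT), and Sftpa1 differed by 0.24 ± 0.071 (SE, n = 18 per genotype, limma adjusted p = 0.184). Cftr and Scgb1a1 averaged under 16 intensity units. Of 13 muscle markers 0 passed, all were lower in TB (median −0.40), and their sums ran from 512 to 775 in TB and from 545 to 288800 in WT, where the highest is the array with muscle transcripts.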
